A study of Mus musculus with 25 samples.

Results

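The 4 Id genes and 6 regulators on the BMP side of the TGF-beta superfamily were followed in mouse mammary tumour cells exposed to platelets. The 10 genes are the ligands Bmp4 and Bmp7, the decoy receptor Bambi, the signalling Smads Smad1 and Smad5, the inhibitory Smad6, and the targets Id1, Id2, Id3 and Id4. They were chosen by symbol, with results of these data in view, and all 10 were found among the 17491 genes measured on both array types. Where a gene has several probe sets, the one with the highest mean signal was to stand for it. Each of the 10 had exactly 1 probe set with a single symbol in each table, so signal level did not decide the choice.

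The cells were Ep5 (EpRas), 1 line of Ras-transformed mammary epithelial cells, given as C57BL/6 in background. On the exon arrays, cells were cultured for 24 h with platelets at roughly 1000 platelets per tumour cell (n = 5), combined with platelets at the same ratio only just before RNA isolation (the lysis mix, n = 3), or kept alone at sub-confluence (n = 5). On the gene arrays, cells received whole platelets under the same label (n = 3) or, for 24 h, a platelet fraction. The fractions were the pellet of thrombin-treated and centrifuged platelets (n = 3) and the releasate of that spin (n = 3). The last group was labelled tumour cells alone (n = 3). Titles of the arrays of cells alone read Pipes on both array types, and those of the lysis mix PHBuf. Platelets came from wild-type C57BL/6 mice and had been isolated by centrifugation. The label of the whole-platelet group names no thrombin, so pellet and releasate differ from it in more than the fraction added.

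BMP ligands bind pairs of type I and type II receptor kinases, which phosphorylate Smad1, Smad5 and Smad9; these enter the nucleus with Smad4. Id genes are among the most direct targets of this route in epithelial cells, and TGF-beta, acting through Smad3, can repress them. Id proteins have a helix-loop-helix domain but no DNA-binding region, and they hold E proteins and other basic helix-loop-helix factors away from DNA.

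With platelets, Id2 showed the widest difference of the 10 genes on both array types. On the exon arrays its signal was 7.72-fold lower in cells with platelets than in cells alone, and Id1, Id3 and Bmp4 fell too, while Smad5 and Smad6 rose by small amounts. On the gene arrays none of the 10 genes was called without a block. Id2 and Bmp4 differed from cells alone by −1.71 and −0.83 with whole platelets, and by −1.32 and −0.90 with the pellet. With whole platelets both were called when the array number was a block, a pairing inferred from these data and given by no label. Id2 differed by −0.11 with the releasate. Id1 and Id3 differed by −0.07 and 0.08 with whole platelets. Values are log2 signals, and differences are log2 differences with their standard error (SE). Tests covered 18997 genes of the exon arrays and 19938 of the gene arrays. A gene was called when limma's p, adjusted over all of them by Benjamini-Hochberg, was under 0.05.

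Overall signal was more alike among the gene arrays than among the exon arrays. Array medians were 3.62 to 3.90 for exon arrays and 5.56 to 5.63 for gene arrays. Some exon-array calls below depend on this spread. With equal array medians, Id3 and Smad5 were no longer called against cells alone, nor Bmp4 against the lysis mix. Any 2 arrays of a table correlated at 0.929 to 0.992 (exon) or 0.984 to 0.996 (gene) over all probe sets. The 7 mammary epithelial markers averaged 9.35 to 9.74 with platelets, 9.63 to 9.82 in the lysis mix and 9.60 to 9.86 alone on the exon arrays, and 9.32 to 9.66 across gene arrays, far above the median gene (4.54 and 5.62), as the label of the line implies. Of these 7 on the exon arrays, 1 was called, the epithelial transcription factor Elf3, lower with platelets than alone (−1.40 ± 0.26, adjusted p = 0.00681) and than in the lysis mix (−1.46 ± 0.30, adjusted p = 0.015). Platelet markers (13 measured) averaged 4.51 to 6.31 with platelets, 5.35 to 5.74 in the lysis mix and 3.54 to 3.79 alone on the exon arrays. On the gene arrays (11 measured) they averaged 5.85 to 5.90 with whole platelets, 5.72 to 5.81 with the pellet, 5.31 to 5.39 with the releasate and 5.43 to 5.53 alone. Leukocyte markers (8 measured) averaged 3.76 to 3.97 with platelets, 3.81 to 3.88 in the lysis mix and 3.34 to 3.55 alone on the exon arrays. Both platelet conditions on the exon arrays thus carried platelet marker signal. The lysis mix shares it, but not in matched amounts, since arrays with platelets lay both below and above the lysis mix range. Lysis mix arrays are numbered 4 to 6 and platelet arrays 1 to 5, so platelet arrays 1 to 3 have no lysis mix array of the same number. The leukocyte list mean was higher in every array with platelets and of the lysis mix than in every array of cells alone. The median difference of its genes from cells alone was 0.08 with platelets and 0 in the lysis mix. With platelets 2 of 8 were called, where 4.55% of all genes were, and in the lysis mix 0. The part of leukocyte RNA in the differences below was not tested. These are bulk RNA samples, in which fewer cells of a kind and less RNA per cell cannot be told apart. No label says that replicates came from different cultures, and each p-value therefore measures only how these samples vary, which may be technical.

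The promoters of 4 genes are shown because they belong to the members called against both controls on the exon arrays (Id2, Bmp4 and Smad6) or, for Id3, to a further fall among the Id genes. Each sequence is the 250 bases before the annotated start in RefSeq (GRCm38.p6), read 5′ to 3′ along the gene's strand, with capitals marking any match to 4 short motifs on either strand. The motifs were GGCGCC, a GC-rich element bound by BMP Smads, CAGAC, a core bound by Smad3 and Smad4, TGACG, the core of the CREB and ATF element, and CACGTG, the E-box bound by Myc and related factors. Of the 10 genes, 7 were matched in the table by symbol, and Id1, Bambi and Bmp7 were not. Id2 lies at chr12:25096093-25096342 on the minus strand, Id3 at chr4:136143572-136143821 on the plus strand, Bmp4 at chr14:46390670-46390919 on the minus strand and Smad6 at chr9:64022060-64022309 on the minus strand.
Id2: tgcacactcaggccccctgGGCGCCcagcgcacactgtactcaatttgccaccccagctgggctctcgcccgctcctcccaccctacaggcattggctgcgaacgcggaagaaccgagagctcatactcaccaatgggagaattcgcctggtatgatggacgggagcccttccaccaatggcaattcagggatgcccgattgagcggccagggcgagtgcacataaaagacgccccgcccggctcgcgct
Id3: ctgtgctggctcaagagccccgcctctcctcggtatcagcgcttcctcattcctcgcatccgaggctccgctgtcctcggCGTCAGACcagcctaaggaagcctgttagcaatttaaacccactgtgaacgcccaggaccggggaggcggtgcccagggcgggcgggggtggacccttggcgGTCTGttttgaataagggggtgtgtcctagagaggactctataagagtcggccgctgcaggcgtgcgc
Bmp4: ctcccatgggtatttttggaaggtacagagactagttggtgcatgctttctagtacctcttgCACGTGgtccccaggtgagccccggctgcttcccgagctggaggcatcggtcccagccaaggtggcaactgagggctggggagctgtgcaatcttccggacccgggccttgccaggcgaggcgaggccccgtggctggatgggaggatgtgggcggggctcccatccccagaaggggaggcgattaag
Smad6: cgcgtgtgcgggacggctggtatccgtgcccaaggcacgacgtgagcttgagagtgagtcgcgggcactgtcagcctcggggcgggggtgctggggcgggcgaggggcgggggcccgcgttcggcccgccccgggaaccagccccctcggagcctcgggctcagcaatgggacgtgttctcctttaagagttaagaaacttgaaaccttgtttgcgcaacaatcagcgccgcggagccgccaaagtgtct
The Id2 window held GGCGCC once, its first base 231 bases before the start. The Id3 window held CAGAC at 167 bases before the start and, on the other strand, at 68, and TGACG on the other strand at 170, which overlaps the first CAGAC by 2 bases. The Bmp4 window held CACGTG at 188 bases before the start, and none of the 4 motifs was in the Smad6 window. Among matched genes not shown, GGCGCC was also in the Id4 window (148 bases before the start) and in a Smad5 window (19). TGACG was in windows of Id4, Smad1 and Smad5, and CAGAC in a Smad5 window. Of 32851 promoter windows of the same length, 9.59% held GGCGCC, 42.2% CAGAC, 17.8% TGACG and 6.02% CACGTG. A match is a run of letters and says nothing of binding in these cells.

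Exon arrays asked what a day of contact with platelets changed in the tumour cells. Of the 10 genes, 6 were called against cells alone, 4 lower and 2 higher, where 4.55% of all genes were called (2.47% lower and 2.07% higher). The genes were chosen with exon-array results known, so this count is a description. The same holds for the exon-array p-values of single genes given below, which are no independent test. Groups did not overlap for 3 of the lower and 2 of the higher genes, against 5.51% of all genes (3.09% lower and 2.42% higher).

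**Figure D1:**
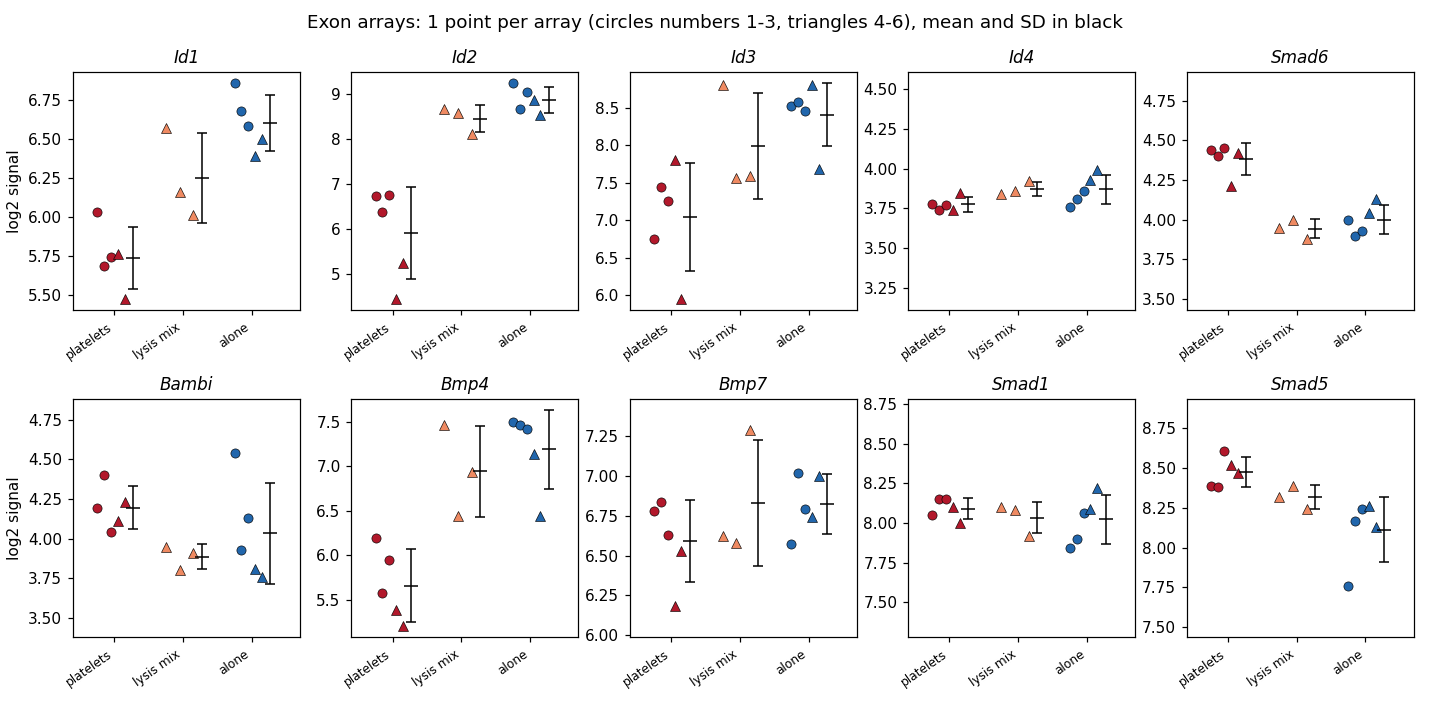
Log2 signal of the 10 genes on the exon arrays, 1 point per array, for cells with platelets, the lysis mix and cells alone, with mean and SD beside the points; circles are arrays numbered 1 to 3 and triangles 4 to 6. Id2 with platelets spans 4.45 to 6.76, below every lysis mix array (8.12 to 8.67) and every array of cells alone (8.53 to 9.25).

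Bmp4, a ligand with roles in mammary and other epithelial development (probe set 6824266), had log2 signals of 6.19, 5.57, 5.95, 5.38 and 5.20 in cells with platelets, 7.46, 6.44 and 6.93 in the lysis mix, and 7.49, 7.46, 7.42, 7.13 and 6.44 in cells alone. All 5 platelet arrays lay below all arrays of both other groups. The difference was −1.53 ± 0.26 (SE) against cells alone (adjusted p = 0.00361), a 2.89-fold lower signal. Against the lysis mix it was −1.29 ± 0.30 (adjusted p = 0.0303). The second call was lost without platelets 2 (adjusted p = 0.0714), platelets 4 (0.0613), platelets 5 (0.056), lysis mix 4 (0.125) or lysis mix 6 (0.109). It was also lost after a further quantile normalization (0.188) and with equal array medians (0.0665). With array weights the difference from the lysis mix was −0.81 (adjusted p = 0.0197). Bmp7, a ligand of another BMP subgroup, averaged 6.59 ± 0.26 (SD, n = 5) with platelets, 6.83 ± 0.40 (n = 3) in the lysis mix and 6.82 ± 0.18 (n = 5) alone. Its difference from cells alone was −0.23, with a 95% interval from −0.58 to 0.12, and it was not called.

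Bambi, a transmembrane protein that resembles a type I receptor but lacks the kinase, averaged 4.19 ± 0.14 with platelets, 3.89 ± 0.08 in the lysis mix and 4.04 ± 0.32 alone, with overlap between platelets and alone. Its difference from cells alone was 0.16, with an interval from −0.13 to 0.45. Bambi, Id4 and Smad6 were dim on both array types: their group means lay below the median gene level on each, and no file says which signals were above background.

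Of the signalling Smads, Smad5 was called and Smad1 was not. Smad5 (probe set 6807345) had log2 signals of 8.39, 8.38, 8.61, 8.52 and 8.47 with platelets, 8.32, 8.39 and 8.24 in the lysis mix, and 7.76, 8.17, 8.24, 8.26 and 8.13 alone. Every platelet array lay above every array of cells alone, while the lysis mix overlapped both. The difference from cells alone was 0.36 ± 0.09 (adjusted p = 0.0479). That call held in 2 of the 13 fits that each left out 1 array (without alone 1 or alone 4), with adjusted p up to 0.119 in the others, and it was lost with equal array medians, among genes above the median level, and with a variance trend. Against the lysis mix the difference was 0.16 ± 0.11 (adjusted p = 0.595). Smad1 averaged 8.09 ± 0.07 with platelets, 8.03 ± 0.10 in the lysis mix and 8.02 ± 0.16 alone, with a difference of 0.07 from cells alone and an interval from −0.11 to 0.24. Whether the 2 Smads differed from each other in response was not tested.

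Smad6, which blocks BMP receptors and is itself induced by BMP in many cell types (probe set 6996263), had log2 signals of 4.44, 4.40, 4.45, 4.21 and 4.42 with platelets. It had 3.95, 4.0 and 3.88 in the lysis mix, and 4.0, 3.90, 3.93, 4.04 and 4.13 in cells alone. The platelet arrays lay above all others, platelets 4 closest to them. Smad6 rose by 0.38 ± 0.07 against cells alone (adjusted p = 0.00507) and by 0.44 ± 0.08 against the lysis mix (adjusted p = 0.00664). In signal these are 1.31-fold and 1.36-fold differences, with 95% intervals up to 1.45-fold and 1.53-fold. These signals lie below the median gene. Within numbers 4 and 5 alone the difference from cells alone was 0.23 (adjusted p = 0.877). With the replicate number as a block, the call against the lysis mix was lost (adjusted p = 0.117).

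Among the targets, Id2 (probe set 6799462) had log2 signals of 6.74, 6.39, 6.76, 4.45 and 5.26 in cells with platelets. It had 8.67, 8.57 and 8.12 in the lysis mix, and 9.25, 8.67, 9.05, 8.87 and 8.53 in cells alone. The platelet arrays lay at least 1 log2 unit below every array of the other groups, with platelets 4 and 5 lowest. The mean differences were −2.95 ± 0.39 against cells alone, with an interval from −3.80 to −2.10, and −2.53 ± 0.45 against the lysis mix, with an interval from −3.51 to −1.55. Because this fall was already known when the genes were chosen, no p-value is given for it. For numbers 4 and 5, which both groups share, the difference from the lysis mix was −4.22 and −3.30. Within numbers, the difference from cells alone was −2.50, −2.28 and −2.29 for numbers 1 to 3, and −4.41 and −3.26 for numbers 4 and 5. The difference between these sets of numbers was 1.48 ± 0.37 in limma's interaction fit, with an interval from 0.64 to 2.32 (unadjusted p = 0.00339, adjusted p = 0.583). In that fit 0 genes were called and 1356 had an unadjusted p under 0.05.

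Platelet marker signal followed the same split of arrays. It was lowest in platelets 4 (4.51) and platelets 5 (5.02), where Id2 was also lowest, and 5.82 to 6.31 in platelets 1 to 3. The lysis mix arrays, with marker signal of 5.35 to 5.74, had Id2 at 8.12 to 8.67. Among the platelet arrays Id2 was lower where platelet marker signal was lower. The part of platelet RNA amount in the size of the Id2 difference was not tested.

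**Figure D2:**
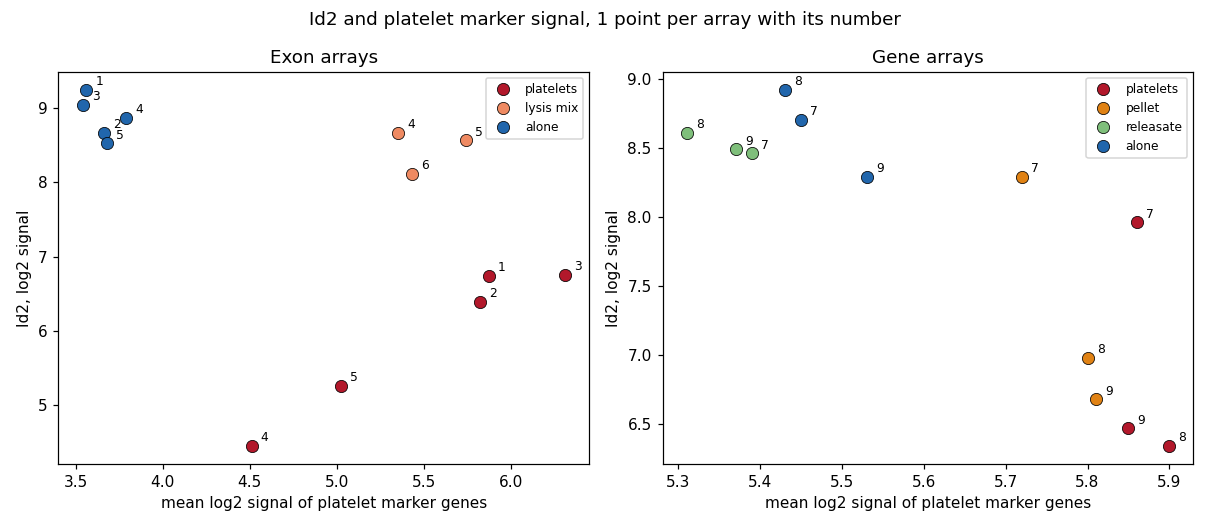
Log2 signal of Id2 (vertical) against the mean log2 signal of the platelet markers (horizontal), 1 point per array with its number, for exon arrays (left) and gene arrays (right). On the exon arrays the lysis mix has platelet marker signal with Id2 at 8.12 to 8.67; on the gene arrays, platelets 7 and pellet 7 keep Id2 at 7.96 and 8.29 with marker signal close to that of the arrays numbered 8 and 9.

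Id1 (probe set 6882315), an Id gene induced early by BMP, had log2 signals of 6.03, 5.68, 5.74, 5.76 and 5.47 with platelets, 6.57, 6.16 and 6.01 in the lysis mix, and 6.86, 6.68, 6.58, 6.39 and 6.5 alone. Platelet and alone arrays did not overlap. The lysis mix overlapped both, its lowest array just under the highest platelet array and its highest (6.57) above alone 4 and alone 5 (6.39 and 6.5). The fall against cells alone was −0.87 ± 0.13 (adjusted p = 0.0015), a 1.83-fold lower signal, and a further quantile normalization took it to −0.74 (adjusted p = 0.0669). Against the lysis mix the difference was −0.51 ± 0.15 (adjusted p = 0.0947), or −0.65 (adjusted p = 0.0426) in a fit that blocks on number set and −0.77 (0.0209) in one that blocks on the number itself. It shrank to −0.28 (adjusted p = 0.633) after a further quantile normalization and to −0.33 (0.0627) with array weights. The lysis mix itself stood at −0.36 ± 0.15 against cells alone (unadjusted p = 0.0327, adjusted p = 0.945).

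Id3 (probe set 6917809) had log2 signals of 6.75, 7.45, 7.26, 7.81 and 5.95 with platelets, 8.81, 7.57 and 7.59 in the lysis mix, and 8.52, 8.58, 8.46, 8.81 and 7.69 alone. Platelets 4 lay above alone 5, so the groups overlapped. The fall against cells alone was −1.37 ± 0.35 (adjusted p = 0.0479). It was called in 3 of the 13 fits that left out 1 array (without alone 5, platelets 4 or lysis mix 4), with adjusted p up to 0.119 in the others, and lost with a further quantile normalization (0.112) or equal array medians (0.0785). Against the lysis mix it was −0.94 ± 0.41 (adjusted p = 0.319). Id4 averaged 3.78 ± 0.05 with platelets, 3.87 ± 0.05 in the lysis mix and 3.87 ± 0.09 alone, and was not called.

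The lysis mix bears on RNA that platelets bring. Against it, 3 of the 10 genes were called, Id2 and Bmp4 lower and Smad6 higher, where 3.68% of all genes were called (2.14% lower and 1.54% higher). This count too is a description, since the genes were chosen with exon-array results known. Groups did not overlap for 4 of the 10 genes, the same 3 and Bambi, against 11.7% of all genes. Between the lysis mix and cells alone, 0 of the 10 were called by limma. An unadjusted p under 0.05 was found there for 1 of them, Id1, and for 748 of all 18997 genes. Of all genes, 0.0474% were called in that comparison. The lysis mix differences of Id2 (−0.42, interval −1.40 to 0.57) and Bmp4 (−0.24, interval −0.89 to 0.40) were smaller than those with cultured platelets (the difference between these differences is the comparison of platelets with the lysis mix). With the replicate number as a block they turned to 0.37 and 0.15 (adjusted p = 0.956 for each). The 2 comparisons of cells with platelets share the 5 platelet arrays.

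**Figure D3:**
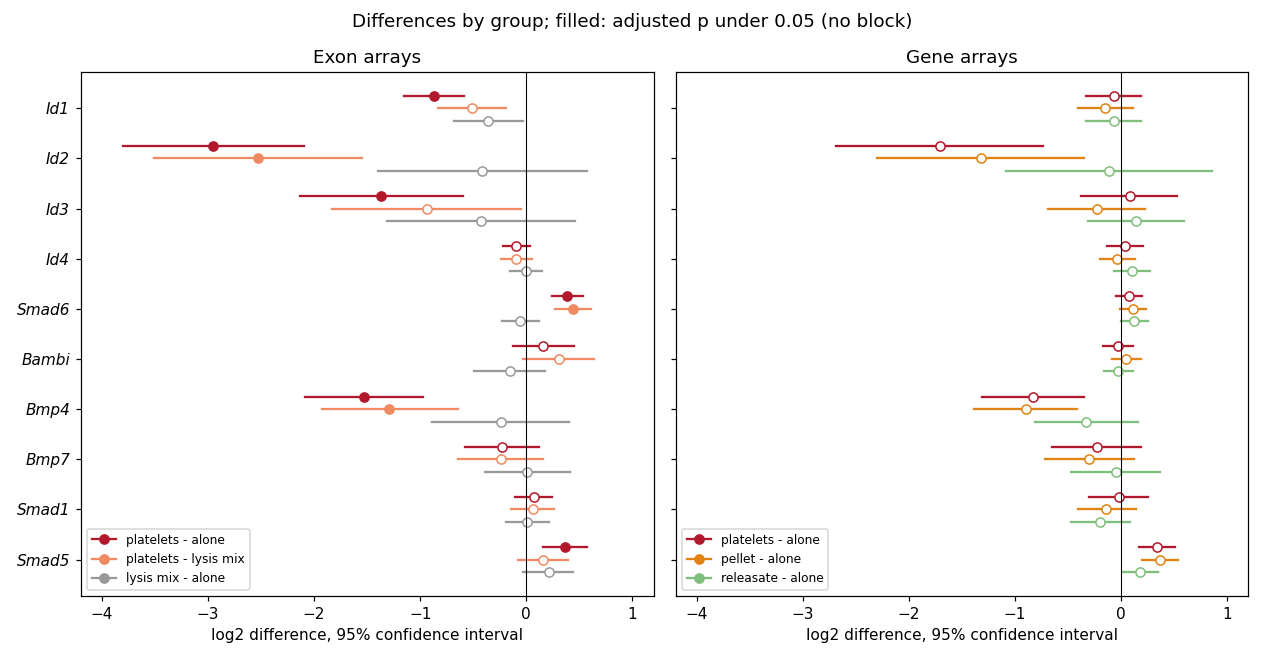
Log2 differences with 95% confidence intervals for the 10 genes, exon arrays left and gene arrays right; filled points have an adjusted p under 0.05 without a block. Id2 stands at −2.95 (platelets minus alone) and −2.53 (platelets minus lysis mix) on the exon arrays, and at −1.71, −1.32 and −0.11 for platelets, pellet and releasate minus alone on the gene arrays.

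Gene arrays asked which platelet fraction carried the difference. Without a block, 0 of the 10 genes were called by limma in any comparison of these arrays. With whole platelets against alone, 3 had an unadjusted p under 0.05 (Id2, Bmp4 and Smad5), where 1916 of 19938 genes did. Of all genes, 0.667% were called there, 0.416% for the pellet against alone and 0% for the releasate against alone (0 of 19938, with 563 at an unadjusted p under 0.05). The same numbers run over the groups. Deviations of same-numbered arrays from their group means correlated at 0.287, 0.442 and 0.362 between platelets and alone (numbers 7, 8 and 9). The numbers were therefore taken to pair these arrays, although no label says so. Between pellet and alone the correlations were −0.0374, 0.153 and 0.339, and between platelets and pellet 0.199, −0.149 and 0.574. The block was applied to the pellet arrays too. Calls made with the block thus rest on a pairing inferred from the same data. With the number as a block, 2 of the 10 genes were called with whole platelets against alone, Id2 and Bmp4, both lower, where 2.28% of all genes were called (1.1% lower). In the same fit, 0 of 19938 genes were called for the releasate, with 792 at an unadjusted p under 0.05.

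**Figure D4:**
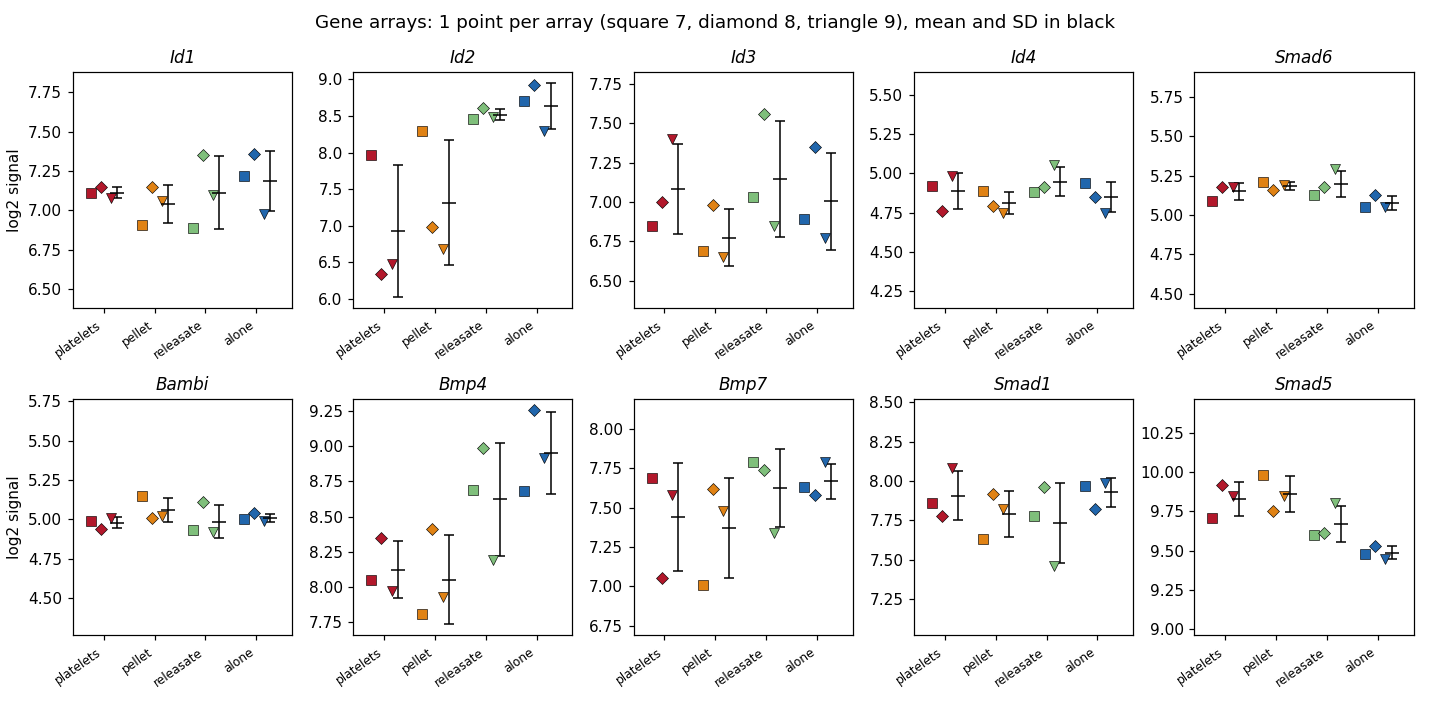
Log2 signal of the 10 genes on the gene arrays, 1 point per array, for cells with platelets, pellet and releasate and cells alone, with mean and SD; squares, diamonds and triangles are numbers 7, 8 and 9. Bmp4 with platelets spans 7.97 to 8.35 and with the pellet 7.81 to 8.41, below the 8.68 to 9.26 of cells alone.

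Id2 (probe set 10399691) had log2 signals of 7.96, 6.34 and 6.47 with whole platelets (numbers 7, 8 and 9), 8.29, 6.98 and 6.68 with the pellet, 8.46, 8.61 and 8.49 with the releasate, and 8.70, 8.92 and 8.29 alone. Whole platelet arrays lay below all arrays alone and all releasate arrays. Pellet 7 matched alone 9 to the second decimal and lay above every whole platelet array. In both platelet-containing groups the array numbered 7 stood more than 1 log2 unit above the other two.

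The Id2 difference from cells alone was −1.71 ± 0.44 with whole platelets (adjusted p = 0.134), and −1.71 ± 0.34 with the block (adjusted p = 0.0336), a 3.27-fold lower signal. Pair by pair it was −0.74, −2.58 and −1.82. Without the block, this difference was called in 2 of the 12 fits that each left out 1 array, with adjusted p up to 0.376 in the others. The 2 fits were without platelets 7 (−2.23, adjusted p = 0.0403) and without pellet 7 (−1.71, adjusted p = 0.0458). Without all arrays numbered 7, a choice made after the data were seen, it was −2.20 (adjusted p = 0.0234). Without the 2 arrays whose platelet tag contradicts their source name, alone 8 and platelets 9, it was −1.34 (adjusted p = 0.484). With the pellet it was −1.32 ± 0.44 (adjusted p = 0.314), and the block left it uncalled (adjusted p = 0.107). Limma array weights moved the pellet to −1.69 (adjusted p = 0.0402) and whole platelets to −1.09 (adjusted p = 0.182). With the releasate it was −0.11 ± 0.44, with an interval from −1.09 to 0.86.

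Set against each other, whole platelets lay −1.60 ± 0.44 from the releasate in Id2 (unadjusted p = 0.00407, adjusted p = 0.357) and the pellet −1.21 ± 0.44 (unadjusted p = 0.0197, adjusted p = 0.724). Of all genes, 0.0451% were called in the first comparison and 0.00502% in the second. Whole platelets and pellet differed by −0.39 ± 0.44, with an interval from −1.37 to 0.58, and array weights turned this difference to 0.60 (adjusted p = 0.787), that from the releasate to −1.02 (0.425). Platelet marker signal in platelets 7 (5.86) and pellet 7 (5.72) was close to that of numbers 8 and 9, at 5.85 to 5.90 with whole platelets and 5.80 and 5.81 with the pellet. The departure of whole platelets from the sum of pellet and releasate was −0.28 ± 0.63 for Id2, and limma called 0 of all genes for it, with 562 at an unadjusted p under 0.05. With array weights it turned to 0.67 (adjusted p = 0.909).

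Bmp4 (probe set 10419261) had log2 signals of 8.05, 8.35 and 7.97 with whole platelets, 7.81, 8.41 and 7.93 with the pellet, 8.69, 8.99 and 8.19 with the releasate, and 8.68, 9.26 and 8.92 alone. Every whole platelet and pellet array lay below every array of cells alone, and the releasate overlapped all 3 other groups. The difference from cells alone was −0.83 ± 0.22 with whole platelets (adjusted p = 0.145) and −0.83 ± 0.12 with the block (adjusted p = 0.00765), at −0.62, −0.91 and −0.95 pair by pair. With the pellet it was −0.90 ± 0.22 (adjusted p = 0.125) and with the releasate −0.33 ± 0.22 (interval −0.81 to 0.16). Bmp4 with whole platelets and with the pellet differed by 0.08 ± 0.22. Bmp7 was at −0.23 with whole platelets, −0.30 with the pellet and −0.05 with the releasate against cells alone, with intervals that include 0 in each case.

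Smad5 (probe set 10405605) had log2 signals of 9.71, 9.92 and 9.85 with whole platelets, 9.98, 9.75 and 9.85 with the pellet, 9.60, 9.61 and 9.80 with the releasate, and 9.48, 9.53 and 9.45 alone. All 9 arrays with platelet material lay above the 3 of cells alone. The differences were 0.34 ± 0.08 with whole platelets (adjusted p = 0.0908), 0.37 ± 0.08 with the pellet (adjusted p = 0.0739) and 0.18 ± 0.08 with the releasate (unadjusted p = 0.0384, adjusted p = 1). None of these passed, and the block did not change that for whole platelets (adjusted p = 0.0756). With array weights, whole platelets (0.28, adjusted p = 0.0416) and pellet (0.36, adjusted p = 0.0137) did. Counting the 10 genes, groups did not overlap for 3 with whole platelets against alone (Id2, Bmp4 and Smad5), where 16.1% of all genes did not. For the pellet it was 4, these and Smad6, against 15.9% of all genes, and for the releasate 1, Smad5, against 8.71%.

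Id1 and Id3 were not called here, and no test crosses the array types, which were labelled and normalized separately. Id1 had log2 signals of 7.11, 7.15 and 7.08 with whole platelets and 7.22, 7.36 and 6.98 alone, so the groups overlapped. Its difference was −0.07 ± 0.12, with an interval from −0.33 to 0.19. On the exon arrays it was −0.87, with an interval from −1.15 to −0.59. Id3 had 6.85, 7.0 and 7.40 with whole platelets, 6.69, 6.98 and 6.65 with the pellet, and 6.89, 7.35 and 6.77 alone, again with overlap. Its difference with whole platelets was 0.08 ± 0.21, with an interval from −0.38 to 0.53. Id4, Bambi, Smad1 and Smad6 had differences with whole platelets of 0.04, −0.03, −0.02 and 0.07. Smad6 with whole platelets had an interval from −0.05 to 0.20, short of the 0.38 of the exon arrays.

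Other genes of the pathway were counted by role on the exon arrays, platelets against alone, where 4.55% of all genes were called. In that comparison 2537 of 18997 genes had an unadjusted p under 0.05. Of 10 other BMP ligands measured, 0 were called by limma, and 0 had an unadjusted p under 0.05; Bmp10 lay furthest from 0, at 0.16 ± 0.13. Of 11 receptors and co-receptors, 1 rose, Acvr1, a type I receptor kinase for BMPs, at 7.57 ± 0.43 with platelets, 6.92 ± 0.25 in the lysis mix and 6.52 ± 0.25 alone (difference 1.05 ± 0.20, adjusted p = 0.00723). Against the lysis mix Acvr1 was not called (0.65 ± 0.23, adjusted p = 0.177). It was called there with the replicate number (0.99, adjusted p = 0.0347) or the number set (0.95, 0.0166) as a block, and stood at 0.36 (0.119) with array weights. Of 14 extracellular antagonists, 1 rose and 1 fell. Fst, the activin and BMP binder follistatin, was at 6.92 ± 0.61 with platelets, 8.70 ± 0.67 in the lysis mix and 9.28 ± 0.70 alone. It fell by 2.36 ± 0.38 on the log2 scale against cells alone (adjusted p = 0.00266). Grem1, the BMP antagonist gremlin, was at 5.10 ± 0.63 with platelets, 4.26 ± 0.28 in the lysis mix and 3.88 ± 0.27 alone, and rose by 1.21 ± 0.26 (adjusted p = 0.0178, and 0.0505 without alone 3).

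Of 13 other Smads and intracellular regulators, 1 rose: Skil, which encodes SnoN, a TGF-beta-induced repressor of Smad activity, at 10.38 ± 0.15 with platelets, 9.33 ± 0.16 in the lysis mix and 9.36 ± 0.16 alone (difference from alone 1.01 ± 0.10, adjusted p = 6.81e-05). Of 10 other BMP target genes, 1 fell: Gata3, a luminal mammary transcription factor, at 7.69 ± 0.20 with platelets, 8.83 ± 0.27 in the lysis mix and 8.93 ± 0.28 alone (difference from alone −1.24 ± 0.15, adjusted p = 0.000314). All 3 E proteins were measured and 0 were called by limma; Tcf4 lay furthest from 0 at 0.25 ± 0.10 (unadjusted p = 0.0316, adjusted p = 0.283). List medians lay between 0.04 and 0.15, where the median of all genes was 0. Against the lysis mix, Skil stayed higher (1.05 ± 0.11, adjusted p = 0.000258), and Gata3 (−1.14 ± 0.17, adjusted p = 0.00228) and Fst (−1.78 ± 0.44, adjusted p = 0.0431) lower, the last called in 4 of the 13 fits that left out 1 array.

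Gene arrays gave no such calls: 0 genes of these lists were called by limma with whole platelets against alone without the block. The gene arrays measured 11 other BMP ligands, 11 receptors and co-receptors and 14 extracellular antagonists. They also measured 13 other Smads and intracellular regulators, 10 other BMP target genes and 3 E proteins. Of all these list genes, 9 had an unadjusted p under 0.05, where 1916 of all 19938 genes did. With the block, where 2.28% of all genes were called, Acvr1 (0.39, adjusted p = 0.0307), Fst (−1.16, adjusted p = 0.02) and Skil (0.54, adjusted p = 0.0155) passed. Without the block, Fst was called when pellet 7 (adjusted p = 0.0398) or pellet 8 (0.0465) was left out, and Skil without pellet 7 (0.0458) or releasate 9 (0.0246). Each was thus called in 2 of the 12 fits that left out 1 array. Gata3 was at 7.70 ± 0.24 with whole platelets, 7.45 ± 0.41 with the pellet, 7.61 ± 0.19 with the releasate and 7.64 ± 0.22 alone, with a difference of 0.05 ± 0.20 for whole platelets.

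**Figure D5:**
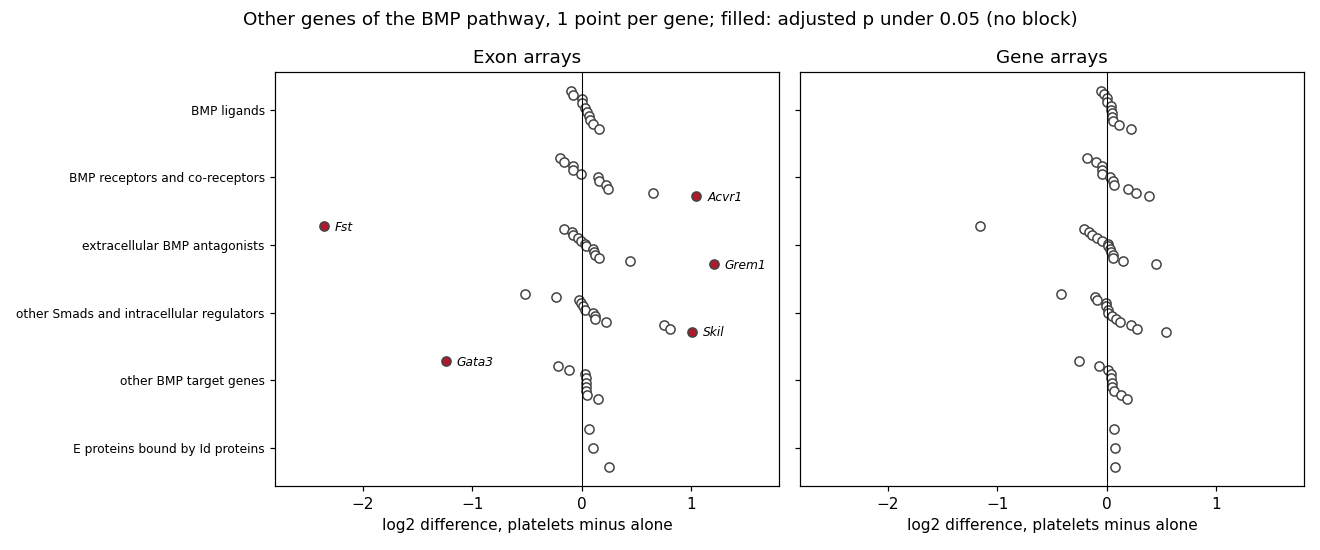
Log2 difference, platelets minus alone, for each measured gene of 6 lists of BMP pathway genes, exon arrays left and gene arrays right; filled points have an adjusted p under 0.05 without a block. On the exon arrays Acvr1 (1.05), Grem1 (1.21) and Skil (1.01) lie right of 0 and Fst (−2.36) and Gata3 (−1.24) left, and no point is filled on the gene arrays.

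No member was called with platelets against alone on both array types without a block, so the genes of like pattern were sought for Id2. Among 17490 other genes in both tables, the 3 with the highest value of the smaller of 2 Pearson correlations were Arhgap18 (0.943 over 13 exon arrays and 0.953 over 12 gene arrays), Pik3r1 (0.918 and 0.899) and 1700016C15Rik (0.891 and 0.922). Arhgap18 averaged 8.42 ± 0.57 with platelets, 10.25 ± 0.14 in the lysis mix and 10.11 ± 0.25 alone on the exon arrays. On the gene arrays it averaged 9.21 ± 0.50 with whole platelets, 9.52 ± 0.58 with the pellet, 10.31 ± 0.15 with the releasate and 10.37 ± 0.04 alone. Pik3r1 encodes a regulatory subunit of PI3-kinase. These arrays share their groups, so the correlations describe the same differences between groups and carry no p.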

How the data were processed

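Gene expression in Ep5 cells was measured on 13 mouse exon arrays and 12 mouse gene arrays. The authors deposited log2 probe set values made with RMA in Partek 6.4 (exon) and 6.5 (gene), per the submitters' processing notes; background options are not given in the sources used here. Groups were taken from source names. Of the gene arrays, alone 8 is tagged with platelets and platelets 9 with none, against their source names, which were followed.

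Probe sets with 1 symbol in the platform annotation were used (22781 of 44343 and 21789 of 35556), and the highest mean stood for a gene. Group differences come from limma 3.58.1 (lmFit, eBayes; R 4.3.3), each table on its own with all its groups, with Benjamini-Hochberg adjustment over all genes and a threshold of 0.05. The code was tested on simulated data. The number of arrays limits precision. The members and lists were chosen with earlier results of these data known. All members are named; other pathway genes are named where called, and otherwise the 1 furthest from 0 in a list with none. Deviations of same-numbered arrays correlated at −0.255 to 0.583 between platelets and alone on the exon arrays, which were not taken as paired, and over 0.1 in all 3 gene-array pairs of platelets or releasate with alone, which were. Exon numbers 2, 3 and 5 (0.48, 0.501 and 0.583) lay above every gene-array pair of platelets with alone. Exon numbers 1 and 4 (−0.255 and 0.0613) lay below them all. Alternatives covered normalization, dim genes, probe sets, array weights, variance trend, number blocks, subsets of numbers and leaving out arrays.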

Additional observations from a re-analysis of the deposited data

Results flagged for a closer look

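In 20 groups of 4 or more exon arrays, 1 for each gene in cells with platelets and in cells alone, 2 held a single array far from the rest by Dixon's criterion, and chance alone gives about 1 such group in 20. Smad6 in platelets 4 had a log2 signal of 4.21, where the nearest platelet array had 4.40, a gap of 0.808 of the group's range. Smad5 in alone 1 had 7.76, where the nearest array of cells alone had 8.13, a gap of 0.745 of the range. Leaving out any 1 exon array kept the difference between platelets and alone at 0.36 to 0.43 for Smad6 and at 0.28 to 0.40 for Smad5.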

How the results depend on the processing

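Of the values of the 18 named genes under the alternatives, 3753 kept direction and side of the threshold, 56 newly passed and 70 no longer passed, all without a change of sign. A further 206 turned sign without passing the threshold before or after, and 0 called values turned. Counts are of all genes unless members are named. With array weights, the exon arrays gave 1750 genes for platelets against alone (864 without), 4402 against the lysis mix (2628 higher and 1774 lower, against 292 and 407 without) and 231 for lysis mix against alone. The gene arrays then gave 464 genes and 2 members (Bmp4 and Smad5) for platelets and 501 genes and 3 members (Id2, Bmp4 and Smad5) for the pellet against alone, 42 for platelets and 37 for the pellet against the releasate. The balance also turned with a further quantile normalization, to 452 higher and 361 lower against alone and to 357 and 296 against the lysis mix. With the replicate block, the exon arrays gave 1326 genes for platelets and 1 for the lysis mix against alone, and the gene arrays 454 genes and 2 members (platelets against alone), 359 and 1 member (pellet against alone, where Bmp4 had an adjusted p of 0.00938), 98 (platelets against releasate) and 44 (pellet against releasate). In the exon arrays the block gave Id3 −1.30 (adjusted p = 0.0145) against the lysis mix. Numbers 4 and 5 alone gave 1 gene and 0 members for platelets against alone, with Id2 at −3.84 on 4 arrays. The mean of all probe sets gave 1 gene in the interaction of the sets of numbers. For platelets and pellet against the releasate, equal array medians gave 5 and 0, genes above the median level 4 and 0, and a variance trend 19 and 13. Without the arrays of contradicting tags the counts were 30 (platelets against alone), 46 (pellet against alone), 0 and 0 (each against the releasate). Without number 7, chosen after the data were seen, they were 58 and 1 member (platelets against alone), 10 (pellet against alone) and 3 (platelets against releasate). Leaving out 1 array gave on the exon arrays 632 to 888 genes and 4 to 5 members for platelets against alone (6 members with all arrays), 397 (without lysis mix 6) to 798 genes and 2 to 3 members against the lysis mix, 1 (without lysis mix 6) to 14 genes for the lysis mix against alone and 0 to 6 for the interaction. On the gene arrays it gave 21 (without alone 9) to 246 genes (without pellet 7) and 0 to 1 member for platelets against alone, 8 (without alone 9) to 133 (without pellet 7) for the pellet against alone, 4 to 33 for platelets and 0 to 6 for the pellet against the releasate, and 0 to 0 elsewhere.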

Other observations

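Pik3r1 averaged 6.23 ± 0.14 with platelets, 6.73 ± 0.05 in the lysis mix and 6.73 ± 0.09 alone on the exon arrays (SD; n = 5, 3 and 5), and 9.70 ± 0.16, 9.78 ± 0.09, 10.10 ± 0.15 and 10.17 ± 0.09 with whole platelets, pellet, releasate and alone on the gene arrays (n = 3 each). The difference from cells alone was −0.50 ± 0.07 (SE) on the exon arrays and −0.47 ± 0.10 with whole platelets on the gene arrays. It was chosen for its likeness to Id2, so these values describe that choice.

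Twsg1, an extracellular modulator of BMP, and Bmpr2, a type II receptor, lay just outside the threshold on the exon arrays, at 0.44 ± 0.12 (adjusted p = 0.0515) and 0.65 ± 0.19 (adjusted p = 0.0794) for platelets against alone. Smad7, an inhibitory Smad, averaged 9.96 ± 0.29 with platelets, 9.46 ± 0.51 in the lysis mix and 9.22 ± 0.46 alone. Smad3, which carries TGF-beta signals, averaged 7.89 ± 0.34 with platelets, 8.58 ± 0.14 in the lysis mix and 8.41 ± 0.24 alone. Neither was called against cells alone (adjusted p = 0.123 and 0.106 by limma). These 4 genes were picked after their values were seen.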
